A study of Rattus norvegicus with 16 samples.

Results

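The 10 genes described here carry prostaglandin synthesis, action and breakdown: Pla2g4a, Ptgs1, Ptgs2, Ptges, Ptgis, Ptgds, Ptger2, Ptger4, Ptgfr and Hpgd. Their members on the array were the probe sets annotated with exactly 1 of these symbols, which gave 14 of 31042 probe sets. They were followed in rat levator ani satellite cells, stem cells grown from an androgen-sensitive muscle of the pelvic floor. The cells were at passage 5, in medium with 10% charcoal-stripped serum, which holds little steroid. They received vehicle (0.2% DMSO) or 10 nM NARA, a nonsteroidal agonist of the androgen receptor, for 4 h or 48 h. Each of the 4 groups had 4 Affymetrix Rat Genome 230 2.0 arrays, of which the authors kept 13. At 4 h these were 4 vehicle and 2 NARA arrays, and at 48 h they were 3 vehicle and 4 NARA arrays. The titles number biological replicates but name no culture or animal. The p-values then weigh differences between group means only against the spread among these samples, and that spread may be technical. The genes were chosen from a known pathway with the NARA results of these data already known, those of Ptgs2 above all. Their NARA values are therefore a description, and the p-values printed with them come from a fit over the whole array.

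Prostaglandins are lipid signals made on demand. Cytosolic phospholipase A2 (Pla2g4a) frees arachidonic acid from membranes, and the cyclooxygenases COX-1 (Ptgs1) and COX-2 (Ptgs2) turn it into prostaglandin H2. Terminal synthases then make prostaglandin E2 (Ptges), prostacyclin (Ptgis) or prostaglandin D2 (Ptgds). EP2 (Ptger2), EP4 (Ptger4) and FP (Ptgfr) are receptors on the cell surface, and Hpgd inactivates prostaglandins. COX-1 is usually present at a steady level, whereas COX-2 is induced by cytokines, growth factors and injury. In skeletal muscle, prostaglandins are known to act on the growth and fusion of myogenic cells.

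The start regions of the 3 genes with a probe set past the threshold at 48 h are shown so that the lower genes Ptgs2 and Pla2g4a can be read beside the higher gene Ptgs1. Each sequence runs from 250 bases before to 50 bases after the gene start in RefSeq for GRCr8, 5′ to 3′ on the gene's strand. These are Ptgs2 at chr13:64713813-64714112 (plus strand), Pla2g4a at chr13:64572303-64572602 (minus strand) and Ptgs1 at chr3:39981169-39981468 (plus strand). Capitals mark matches to 8 motifs searched on both strands.
Ptgs2: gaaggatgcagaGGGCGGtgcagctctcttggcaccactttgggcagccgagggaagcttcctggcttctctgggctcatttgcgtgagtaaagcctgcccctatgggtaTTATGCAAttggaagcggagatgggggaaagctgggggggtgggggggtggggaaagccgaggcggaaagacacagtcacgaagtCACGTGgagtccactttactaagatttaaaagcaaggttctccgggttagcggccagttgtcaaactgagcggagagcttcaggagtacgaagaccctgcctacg
Pla2g4a: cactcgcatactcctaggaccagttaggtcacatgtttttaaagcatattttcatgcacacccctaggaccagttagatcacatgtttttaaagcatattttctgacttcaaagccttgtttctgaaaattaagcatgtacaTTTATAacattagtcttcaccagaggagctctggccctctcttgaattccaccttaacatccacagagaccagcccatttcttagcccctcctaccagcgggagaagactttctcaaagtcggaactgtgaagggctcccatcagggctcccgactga
Ptgs1: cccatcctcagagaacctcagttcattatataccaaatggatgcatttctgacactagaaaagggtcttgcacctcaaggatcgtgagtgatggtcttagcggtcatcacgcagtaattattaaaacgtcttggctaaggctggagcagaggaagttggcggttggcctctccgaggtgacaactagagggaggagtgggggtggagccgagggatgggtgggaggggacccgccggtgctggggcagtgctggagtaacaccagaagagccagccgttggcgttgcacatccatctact
The Ptgs2 window held the E-box CACGTG, present in 6.42% of 33469 promoters. It also held the C/EBP letters TTNNGCAA, as TTATGCAA, present in 10.6%, and the GC box GGGCGG, present in 33.1%. The Pla2g4a window held the TATA-box letters TATAAA on the opposite strand, where 14.2% of promoters held them on either strand. The Ptgs1 window matched none of the 8. The other motifs were the cAMP response half-site TGACG (21.2% of promoters), the AP-1 letters TGANTCA (7.33%), the steroid receptor half-site AGAACA (20.7%) and the NF-kB element (4.18%). Of the 9 members with a promoter in the table, 2 held AGAACA, Ptges and Hpgd, and 0 held the AP-1 letters or the NF-kB element. A match here is a run of letters, and neither a match nor its absence says whether a factor binds.

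At 48 h the COX-1 gene and the COX-2 gene moved in opposite directions under NARA. Ptgs2 was 4.97-fold lower and Ptgs1 1.81-fold higher by its brighter probe set, while Pla2g4a was 1.86-fold lower. In limma's fit across 20904 probe sets whose signal averaged 300 or more, these were 3 of the 7 member probe sets tested at an adjusted p under 0.05 (1 higher, 2 lower). Over the whole array 586 probe sets passed, or 2.80%, and 310 to 527 passed when 1 array was left out, with 321 without vehicle 48 h replicate 2 and 310 without replicate 3. The median change of the 7 was -0.14 on the log2 scale, against -0.00 over all probe sets. The groups did not overlap for 3 of the 7, against 14.7% of all probe sets. Since the members were chosen with this contrast in view, nothing is read from those counts. With the 3 left-out arrays put back, 0 of the 7 passed (Ptgs2 -2.33, limma adjusted p = 0.255). The SE of Ptgs2 was then 0.62, against 0.15 without them. Of these arrays only vehicle 48 h replicate 1 belongs to a 48 h group, while all of them enter the shared spread. With that array alone put back, a fit chosen after seeing the data, 3 of the 7 passed and 770 probe sets were called. The other 7 member probe sets were below the minimum and belonged to Ptgis, Ptgds, Ptger2, Ptger4, Ptgfr and Hpgd, which left 5 of the 10 genes untested. Signals are linear MAS5 values, and fold changes were fitted on log2(signal + 50), which understates changes of dim probe sets.

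**Figure D1:**
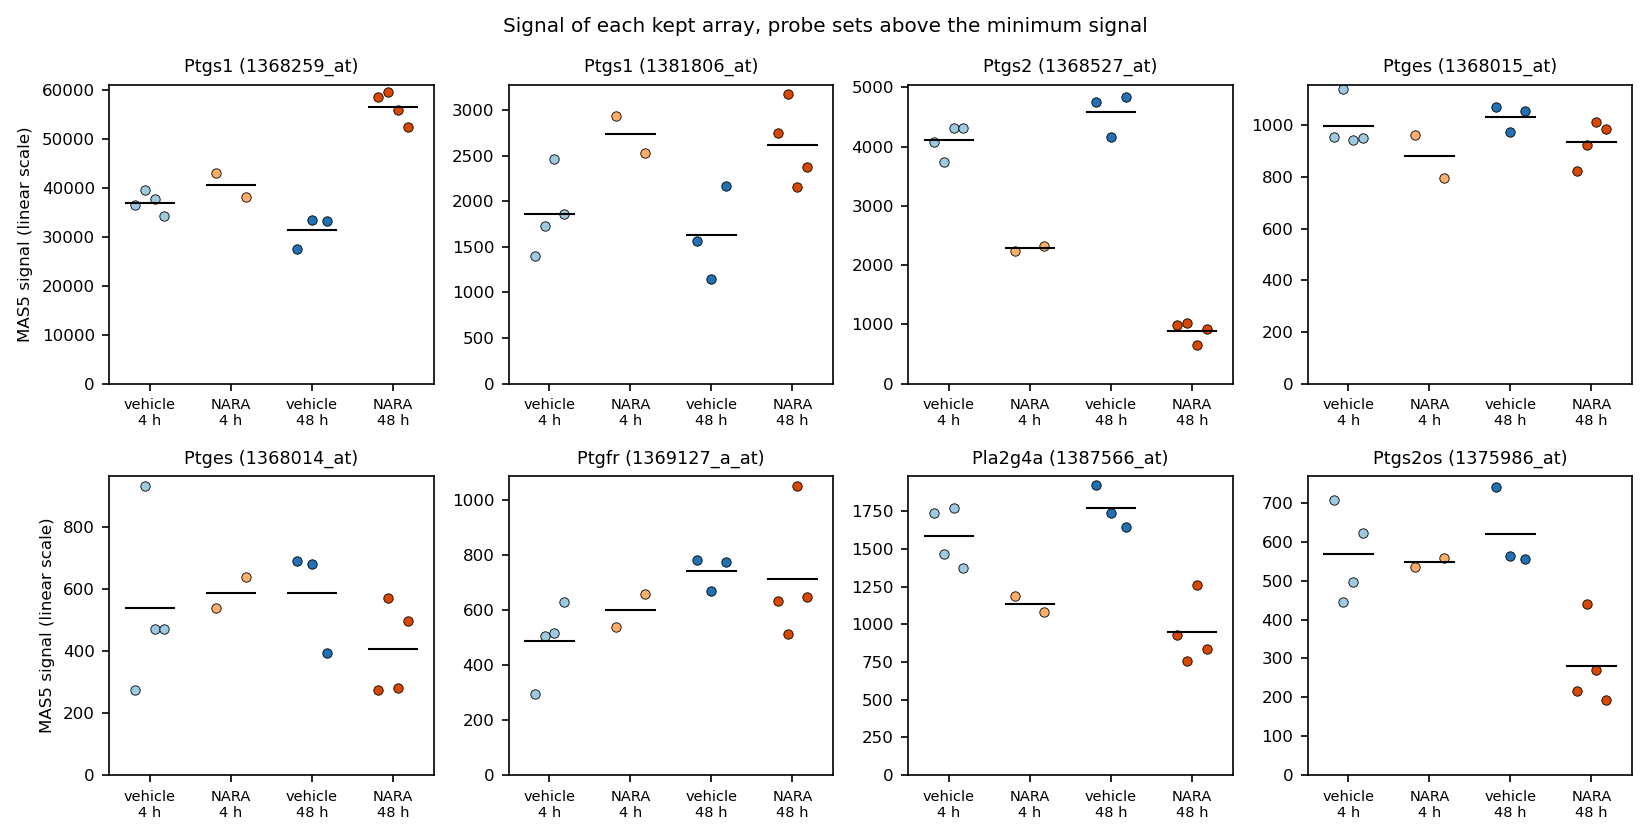
MAS5 signal (linear, axes from 0) of each of the 13 kept arrays for the 7 member probe sets above the minimum signal and for Ptgs2os, with 1 point per array and bars at the group means. Ptgs2 lay between 647 and 1025 in the NARA 48 h arrays and between 4158 and 4837 in the vehicle 48 h arrays, whereas Ptgs1 (1368259_at) was above every other array in the 4 NARA 48 h arrays.

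Arachidonate release comes first in the pathway. Pla2g4a (1387566_at) read 1736, 1469, 1770.3 and 1375 in vehicle at 4 h, and 1187 and 1084 with NARA at 4 h. At 48 h it read 1927, 1741 and 1645 in vehicle and 930.49, 758, 1262 and 836 with NARA. Both vehicle groups stood above both NARA groups, with no overlap at either time. The 48 h means were 1771 ± 143 (SD, n = 3) and 947 ± 222 (SD, n = 4). On the log2 scale the gene fell by 0.89 at 48 h (SE 0.16, limma adjusted p = 0.0127). The call was lost without vehicle 48 h replicate 2 (adjusted p = 0.0615) or replicate 3 (0.0513), and with only the 48 h groups fitted (0.0876). At 4 h the difference was -0.46 (SE 0.18, limma adjusted p = 1), and the 48 h effect minus the 4 h effect was -0.43 (SE 0.25, adjusted p = 0.647).

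Of the cyclooxygenases, Ptgs2 (1368527_at) read 4069.8, 3746, 4313 and 4314 in vehicle at 4 h, and 2230.4 and 2329 with NARA at 4 h. At 48 h it read 4758, 4158 and 4837 in vehicle, and 986, 1025, 647 and 913 with NARA. From high to low the groups stood as vehicle 48 h, vehicle 4 h, NARA 4 h and NARA 48 h, and only the vehicle groups overlapped. The 48 h means were 4585 ± 372 (SD, n = 3) and 893 ± 170 (SD, n = 4). Ptgs2 fell by 2.31 on the log2 scale at 48 h (SE 0.15, 95% interval -2.63 to -1.99, limma adjusted p = 2.75e-05). At 4 h it was 1.78-fold lower, a log2 difference of -0.83 (SE 0.17, limma adjusted p = 0.286, unadjusted 0.00033).

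The 4 h comparison rested on 2 NARA arrays, and limma called 0 of 20904 probe sets in it, a share of 0%, with 992 at an unadjusted p under 0.05. Of the 7 member probe sets, 2 were under that unadjusted level, Ptgs2 and Pla2g4a. For 3 of the 7 (Ptgs2, Pla2g4a and the dimmer Ptgs1 probe set) the 4 h groups did not overlap, against 14.3% of all probe sets. The 48 h effect of NARA on Ptgs2 exceeded its 4 h effect by a log2 difference of -1.48 (SE 0.22, limma adjusted p = 0.0275). It was the 1 member past the threshold in that contrast, which called 26 probe sets, or 0.124%, and 1 to 32 when 1 array was left out. The count was 1 without vehicle 48 h replicate 3 or NARA 48 h replicate 4, 5 and 8 without NARA 4 h replicate 3 and replicate 2, 13 without vehicle 4 h replicate 3 and 17 without vehicle 48 h replicate 2. That call held without NARA 48 h replicate 1, 2 or 3 in turn and was lost without any one of the other 10 arrays, with adjusted p from 0.0221 to 0.0957 over the 13 fits and the log2 difference from -1.55 to -1.34. It was also lost with no signal minimum (adjusted p = 0.0726), and with all 16 arrays the difference was 0.063 (adjusted p = 0.974). The fit of all 16 arrays includes the left-out NARA 4 h replicates 1 and 4, in which Ptgs2 read 123 and 361.5. Those arrays correlated at 0.645 to 0.673 with the kept ones.

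Ptgs1 was read by 2 probe sets. The brighter, 1368259_at, gave 36462, 39646, 37706 and 34232 in vehicle at 4 h, and 43113 and 38226 with NARA at 4 h. At 48 h it gave 27443, 33460 and 33208 in vehicle, and 58723, 59576, 56003 and 52408 with NARA. All 4 NARA 48 h arrays exceeded every other array, and the lowest values were those of vehicle at 48 h. The 48 h means were 31370 ± 3404 (SD, n = 3) and 56678 ± 3229 (SD, n = 4), so Ptgs1 rose by 0.86 on the log2 scale (SE 0.11, 95% interval 0.62 to 1.09, limma adjusted p = 0.00124).

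The dimmer Ptgs1 probe set, 1381806_at, gave 1561, 1151 and 2169 in vehicle at 48 h and 2746, 3181, 2152 and 2373 with NARA. At 4 h it gave 1398, 1728, 2468 and 1865 in vehicle and 2941 and 2535 with NARA. The groups overlapped at 48 h and not at 4 h. At 48 h the log2 difference was 0.70 (SE 0.23, limma adjusted p = 0.147). The probe sets thus had the same sign at 48 h, and 1 of them passed. At 4 h the brighter one differed by 0.14 (SE 0.12, adjusted p = 1) and the dimmer one by 0.57 (SE 0.26, adjusted p = 1). For the brighter one, the 48 h effect minus the 4 h effect was 0.72 (SE 0.16, adjusted p = 0.163).

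**Figure D2:**
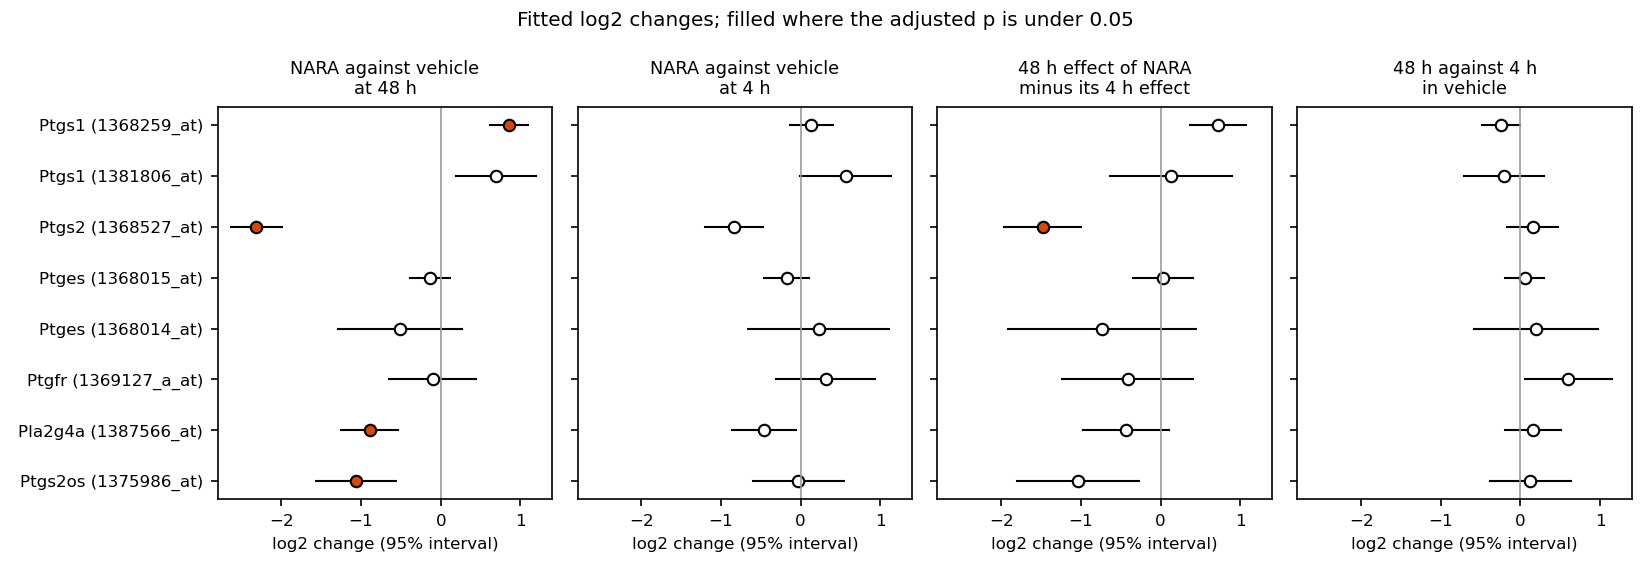
Fitted log2 changes with 95% intervals for the 7 member probe sets above the minimum and for Ptgs2os in 4 contrasts, with filled points where limma's adjusted p was under 0.05. At 48 h Ptgs2 stands at -2.31, Pla2g4a at -0.89 and Ptgs1 (1368259_at) at 0.86, and no point is filled at 4 h or for culture time.

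Among the terminal synthases, Ptges was read by 2 probe sets, and neither passed in any of the 4 contrasts. The brighter, 1368015_at, gave 1072, 973 and 1055 in vehicle at 48 h and 824, 926, 1012 and 985 with NARA. The groups overlapped, with a log2 difference of -0.14 (SE 0.11, 95% interval -0.39 to 0.11, limma adjusted p = 0.614). The dimmer, 1368014_at, gave 689, 681 and 395 in vehicle and 274, 572, 282 and 496 with NARA, a log2 difference of -0.51 whose interval, -1.29 to 0.27, was wide. At 4 h the brighter probe set differed by -0.17 (95% interval -0.46 to 0.11) and the dimmer by 0.23 (-0.66 to 1.11).

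Ptgis, the prostacyclin synthase, and Ptgds, a prostaglandin D synthase, were below the minimum. Over the 13 arrays Ptgis ranged from 48.4 to 139 with a mean of 100.4 ± 27.2 (SD, n = 13), and its group means lay between 78.8 and 134. Ptgds ranged from 22.1 to 222 with a mean of 86.0 ± 58.1 (SD, n = 13). Both genes are thus given by level only, as are the next ones in the dim range.

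Of the receptors, Ptgfr passed the minimum with 1 of its 2 probe sets, 1369127_a_at. It read 293, 503, 516 and 629 in vehicle at 4 h, and 538 and 658 with NARA at 4 h. At 48 h it read 781, 667 and 772 in vehicle and 632, 514, 1048 and 647 with NARA. NARA and vehicle overlapped at both times, with log2 differences of -0.10 at 48 h (95% interval -0.64 to 0.45, limma adjusted p = 0.89) and 0.31 at 4 h (-0.31 to 0.93, adjusted p = 1). The other Ptgfr probe set, 1369126_at, ranged from 6.67 to 158 over the 13 arrays.

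Ptger2 and Ptger4, both of which raise cAMP when bound, were below the minimum. Ptger2 ranged from 22.2 to 109 with a mean of 46.6 ± 22.0 (SD, n = 13). Ptger4 ranged from 42.3 to 477, and its group means were 182 in vehicle and 158 with NARA at 4 h, and 170.5 in vehicle and 279.6 with NARA at 48 h. The SDs of these Ptger4 groups, 48.5 to 197, were of the order of the differences between them. Hpgd, the breakdown enzyme, had means of 82.4 ± 74.9 and 64.3 ± 61.5 (SD, n = 13) in its 2 probe sets, also below the minimum.

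**Figure D3:**
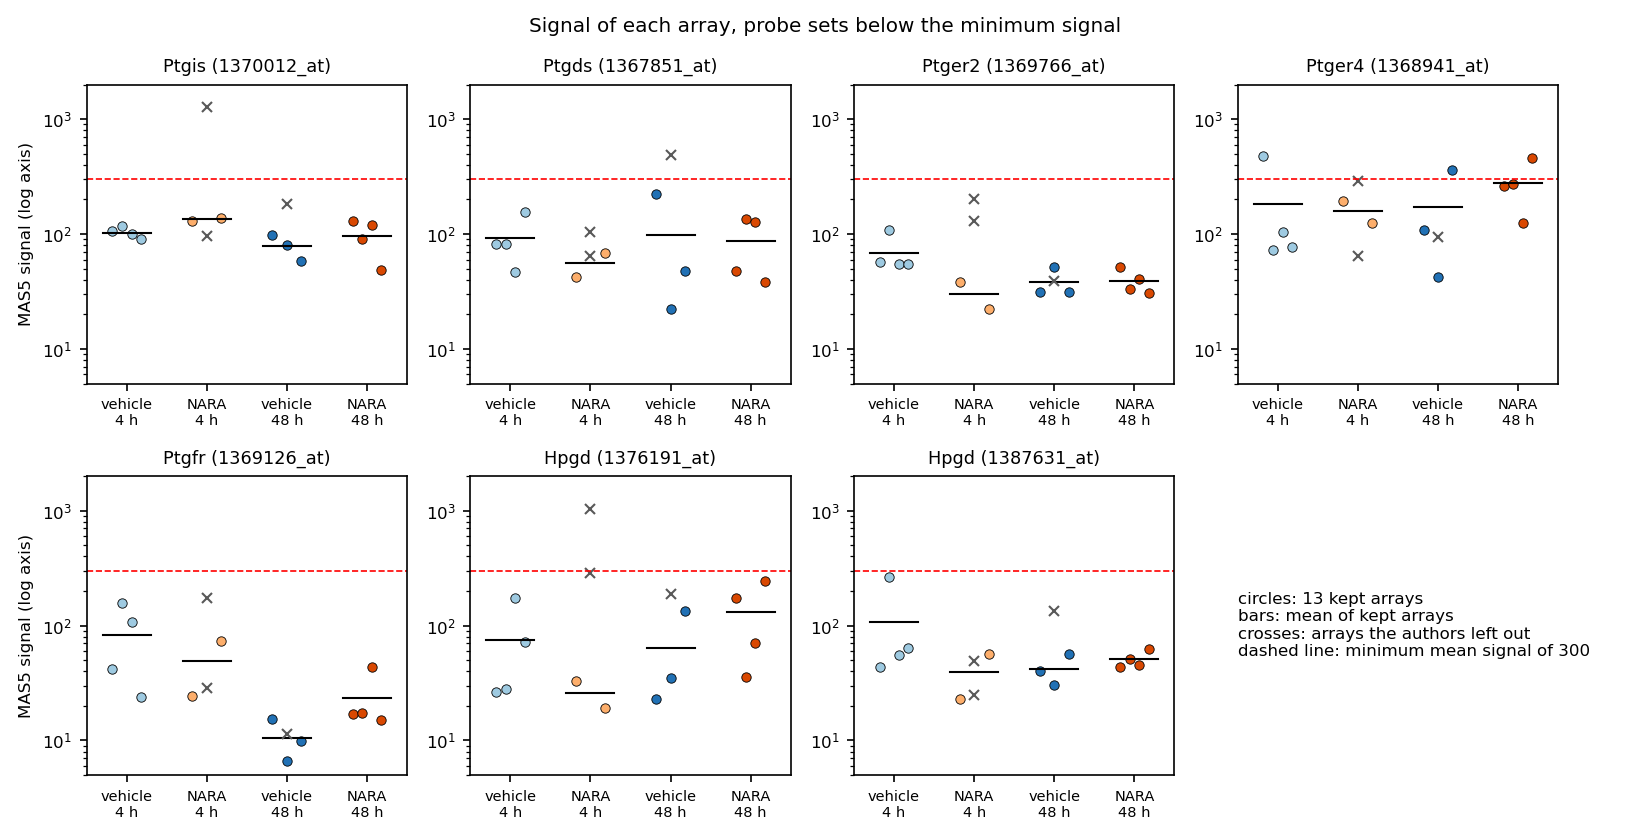
MAS5 signal (log axis) of the 7 member probe sets below the minimum mean signal of 300, drawn as a dashed line, with circles for the 13 kept arrays, bars for their group means and crosses for the 3 arrays the authors left out. The kept arrays overlap between vehicle and NARA at 48 h in all 7 panels. At 4 h, with 2 NARA arrays, they do not overlap for Ptgis (higher with NARA) and Ptger2 (lower). Among probe sets above the minimum, 14.3% did not overlap at 4 h. The highest cross is Ptgis in NARA 4 h replicate 1 at 1276.

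Culture time in vehicle is a contrast that the choice of members was not stated to use, although it shares the vehicle arrays with the NARA contrasts. limma called 0 of 20904 probe sets between 48 h and 4 h in vehicle (0%), with 1536 at an unadjusted p under 0.05, 2 of them members. The vehicle groups did not overlap for the same 2 of the 7 member probe sets, against 8.90% of all. Ptgfr (1369127_a_at) differed by 0.60 on the log2 scale between 48 h and 4 h (SE 0.25, limma adjusted p = 0.654). Ptgs1 (1368259_at) differed by -0.24 (SE 0.11, adjusted p = 0.668). Ptgs2 differed by 0.15 (95% interval -0.16 to 0.47) and Pla2g4a by 0.16 (-0.20 to 0.51), so the vehicle levels of these genes were not separated by time at this precision.

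Ptgs2 and Pla2g4a lie close to each other on rat chromosome 13. In the RefSeq gene table their order is Pla2g4a, a pseudogene, the noncoding RNA Ptgs2os and Ptgs2. Ptgs2os starts on the strand opposite to Ptgs2, and the start windows of the pair share 275 bases, most of the Ptgs2 sequence printed above. Ptgs2os, named here after its values were seen, has a probe set of its own, 1375986_at. It read 742, 562 and 555 in vehicle at 48 h and 217, 439, 271 and 194 with NARA, without overlap. It fell by 1.06 on the log2 scale (SE 0.23, limma adjusted p = 0.0319).

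That call was lost when any one of the 48 h arrays except NARA 48 h replicate 2 was left out, with adjusted p from 0.00538 to 0.139 over the 13 fits, and also with only the 48 h groups fitted (0.132), no signal minimum (0.0668) or all 16 arrays (0.0566). At 4 h Ptgs2os read 708, 445, 497 and 623 in vehicle and 536 and 558 with NARA, a log2 difference of -0.03 (SE 0.26, adjusted p = 1). On the other side of Ptgs2 the next gene with a tested probe set was Odr4, which differed by 0.09 at 48 h (SE 0.14, adjusted p = 0.814). The 3 probe sets of Tpr, further along, differed by -0.03, -0.12 and 0.27, with adjusted p of at least 0.705. Beyond Pla2g4a, the genes looked up had no probe set under a single symbol, so that side could not be read. The probes' own sequences were not used here, so their strand and uniqueness were not tested.

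The rest of the pathway was read from 6 lists of other genes, 83 in all, of which 77 were on the array and 62 passed the minimum, each by its brightest probe set. At 48 h 1 of the 62 was higher and 1 lower past the threshold, or 3.23%, against 3.21% of 11286 genes. The median change of the 62 was 0.02 on the log2 scale, against -0.01 for all genes. The share of calls in these lists at 48 h was thus that of the array as a whole. At 4 h, for the difference between the times and for culture time 0 of the 62 passed, where limma called 0%, 0.151% and 0% of all genes. At an unadjusted p under 0.05 were 13 of the 62 at 48 h (21.0%, against 17.1% of all genes) and 7 at 4 h (11.3% against 4.28%). For the difference there were 6 (9.68% against 9.18%) and for culture time 7 (11.3% against 7.87%).

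Among the targets of cAMP, the messenger of EP2 and EP4, 1 of 9 tested genes was higher. This was Rgs2, a regulator of G protein signalling that dampens Gq-coupled receptors. Its mean signal was 987 ± 177 (SD, n = 3) in vehicle and 3054 ± 228 (SD, n = 4) with NARA at 48 h, and it rose by 1.59 on the log2 scale (SE 0.15, limma adjusted p = 0.00018). With all 16 arrays its adjusted p was 0.0566. Its other probe set gave 1.60 (SE 0.21, adjusted p = 0.00198). At 4 h the Rgs2 means were 861 in vehicle and 1568 with NARA, a log2 difference of 0.84 (SE 0.17, adjusted p = 0.286). Pde4b, a phosphodiesterase that degrades cAMP, had means of 5381 and 3797 at 48 h (log2 difference -0.50, adjusted p = 0.0805).

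Of 18 inducers of Ptgs2 and regulators of its mRNA, 1 was lower at 48 h. This was Egr1, an immediate early transcription factor, with means of 18941 ± 834 (SD, n = 3) in vehicle and 11763 ± 1758 (SD, n = 4) with NARA. It fell by 0.70 on the log2 scale (SE 0.15, limma adjusted p = 0.0311), a call lost without vehicle 4 h replicate 1, any one of the 3 vehicle 48 h arrays, or NARA 48 h replicate 1, 2 or 3 (adjusted p from 0.0245 to 0.114 over the 13 fits). It was also lost with only the 48 h groups fitted (adjusted p = 0.105), no signal minimum (0.0703) or all 16 arrays (1). The vehicle mean of Egr1 was 12934 at 4 h, so the 48 h NARA mean was nearer to the 4 h vehicle mean than to the 48 h one.

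The interleukin gene Il1b had the smallest p of the inducers at 4 h. Its means were 548 in vehicle and 177 with NARA at 4 h, and 535 and 638 at 48 h. The log2 difference was -1.39 at 4 h (SE 0.23, limma adjusted p = 0.175) and 0.25 at 48 h (SE 0.20, adjusted p = 0.604), and neither passed. Its 48 h effect minus its 4 h effect was 1.65 (SE 0.31, adjusted p = 0.0764). Nfkb1, an NF-kB subunit, differed by -0.35 at 48 h (SE 0.10, adjusted p = 0.0946).

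In the remaining 4 lists 0 genes passed at 48 h. Of 11 other genes of arachidonate release and reacylation, the secreted phospholipase Pla2g10 differed by 0.48 (SE 0.13, limma adjusted p = 0.0855) and Pla2g12a by -0.55 (SE 0.15, adjusted p = 0.0907), opposite signs within the family. Of 11 genes of other prostanoid synthesis, transport and breakdown, the carbonyl reductase Cbr1 differed by -0.19 (adjusted p = 0.291) and the thromboxane synthase Tbxas1 by 0.67 (adjusted p = 0.309). Of 7 other receptor genes, Ppard differed by 0.25 (adjusted p = 0.346) and Ptgfrn, a partner protein of the FP receptor, by -0.20 (adjusted p = 0.491). Of 6 lipoxygenase and leukotriene genes, Lta4h differed by 0.30 (adjusted p = 0.201) and Alox12 by -0.54 (adjusted p = 0.663).

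**Figure D4:**
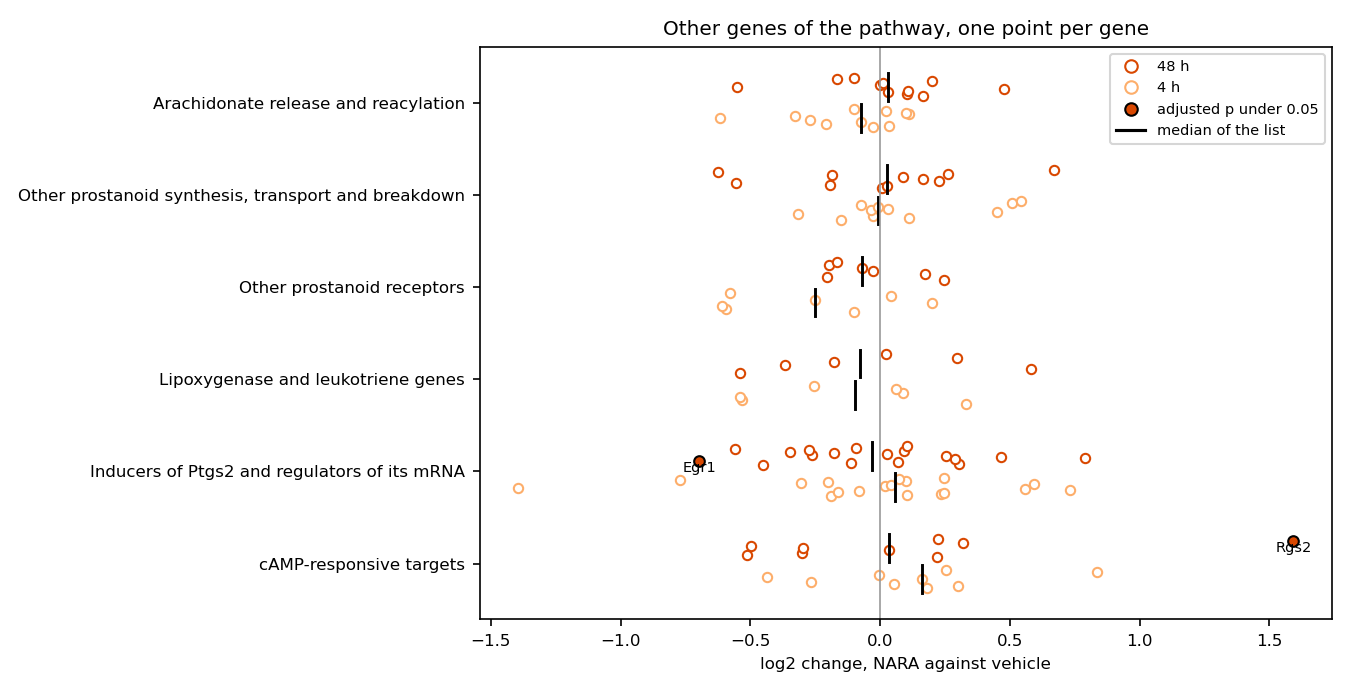
Log2 change under NARA at 48 h and at 4 h of the 62 tested genes in the 6 other pathway lists, with 1 point per gene, filled where limma's adjusted p was under 0.05, and a black bar at each list's median. Rgs2 at 1.59 and Egr1 at -0.70 are the 2 filled points, and the list medians at 48 h lie between -0.08 and 0.04.

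The genes whose pattern was most like that of Ptgs2 were found by the root mean square difference of log2 profiles over the 13 arrays, each set to its own vehicle 4 h mean, among 11281 genes. They were Egr2 (0.39), an early growth response transcription factor; Gjb2 (0.42), a gap junction protein; and Wfdc18 (0.43). Next came Grem1 (0.49), a secreted antagonist of bone morphogenetic proteins, and Cxcr4 (0.50), a chemokine receptor. Their log2 differences at 48 h were -1.80, -1.74, -1.53, -1.35 and -3.02 in that order, and at 4 h -0.64, -0.54, -0.17, -0.10 and -0.56. Ptgs2 itself stood at -2.31 and -0.83, so the 4 h values of Egr2, Gjb2 and Cxcr4 were nearer to that of Ptgs2 than those of Wfdc18 and Grem1. The arrays behind the profiles are the same for every gene, and likeness is given as a description.

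The 13 kept arrays correlated at 0.930 to 0.956 with each other, the left-out NARA 4 h arrays at 0.645 to 0.673 with them and the left-out vehicle 48 h array at 0.922 to 0.933. Of 13 satellite cell and myoblast markers 8 were tested. Myod1 was below the minimum at 83.9, Myog, Des and Cdh15 had means of 1117, 774 and 1275.0, and Pax7, Myf5 and Cd34 had no probe set under a single symbol in the annotation used here. The summed linear signal of the 10 on the array was 18195 to 22119 in vehicle and 11626 to 13876 with NARA at 48 h. Sdc4 and Cxcr4, with means of 8548 and 2848.5 over the 13 arrays, were its largest parts. Of the 8 tested 2 were lower past the threshold, Sdc4 (-0.72 on the log2 scale) and Cxcr4 (-3.02). The other 6 did not pass, among them Itga7 at 0.95, Ncam1 at 0.63, Myog at 0.18, Cdh15 at 0.05, Des at -0.07 and Vcam1 at -0.17. Of 9 fibroblast markers all were tested and 2 were lower past the threshold at 48 h, Lum (-1.06 on the log2 scale) and Pdgfra (-0.75). The rest did not pass: Postn -0.59, Dcn -0.56, Thy1 -0.27, Fbn1 -0.08, Col1a1 0.04, Col1a2 0.23 and Col3a1 0.39. The summed signals of all 9 at 48 h were 383940.0 to 473840.0 in vehicle and 392970.0 to 491450.0 with NARA. Col1a2, Col3a1 and Col1a1, with means of 134200, 114150 and 72121 over the 13 arrays, were the largest parts of that sum. Macrophages are known to make both cyclooxygenases. Of 9 macrophage markers 5 were tested and 0 passed. The summed signals of all 9 were 4732 to 6999.8 in vehicle and 6122 to 7040.3 with NARA at 48 h, and Ptprc, Adgre1, Itgam and Cd163 were below the minimum. The 6 smooth muscle and pericyte markers summed to 14495 to 17360.0 in vehicle and 10525 to 14414 with NARA at 48 h. Tagln and Acta2, with means of 9821 and 5347 over the 13 arrays, were the largest parts of that sum. Of the 6, 0 passed (Tagln -0.62, Myh11 -0.47, Acta2 -0.33, Rgs5 0.11, Cspg4 0.19 and Cnn1 0.53). Of all 11286 genes 3.21% passed at 48 h by their brightest probe set. The marker lists were chosen with earlier results known, so nothing is read from the marker counts. The part of these markers in the Ptgs1, Ptgs2 and Pla2g4a differences was not tested, and in bulk RNA fewer cells of a type and less RNA per cell cannot be told apart.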

How the data were processed

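The authors deposited 1 intensity per probe set and array, a linear MAS5 signal, per the submitters' processing notes, scaled to a trimmed mean of 1500, per the series' design text. Total RNA (5 µg per array) was extracted with Trizol, per the labels' protocols, or with a column kit, per the design text. The 3 arrays the authors left out (NARA 4 h replicates 1 and 4, vehicle 48 h replicate 1) were left out. After 57 control probe sets were removed, log2(signal + 50) of the 20904 probe sets averaging 300 or more over the 13 arrays was fitted with 4 group means in limma 3.58.1 (R 4.3.3), with 9 residual and 2.4 prior degrees of freedom. P-values were two-sided and adjusted by Benjamini-Hochberg over all of them (threshold 0.05). The 10 members, the 6 pathway lists and the 8 marker lists were chosen with earlier results of these data known. Named were all member probe sets, list genes past the threshold or else the 2 of smallest p, and the 5 genes most like Ptgs2. Pde4b, Il1b, Nfkb1, Ptgs2os, Odr4 and Tpr fall outside this rule and were named after their values were seen. Of the endothelial (3 tested), mast cell (3), smooth muscle (6), adipocyte (2) and liver (4) markers 0 passed at 48 h, against 3.21% of all genes. With so few tested, these counts cannot show whether such cells changed. Gene names came from the platform annotation and promoters from RefSeq (GRCr8). The main fit had no replicate block, which was run as an alternative. Same-numbered samples of different groups did not deviate together (correlations -0.04 to 0.04 over 16 pairs). The steps were tested on simulated data. The number of arrays limits the precision. Alternatives covered the arrays, offset, minimum, scaling, variance prior, replicate block and leaving out each array.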

Additional observations from a re-analysis of the deposited data

Results flagged for a closer look

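The 48 h effect of NARA on Ptgs2 differed from its 4 h effect by -1.48 on the log2 scale (limma adjusted p = 0.0275). Ptgs2 was chosen with its NARA results known, so this difference is a description. It passed in 10 of 23 alternatives and in 3 of the 13 fits that left out 1 array, and with all 16 arrays it was 0.063. Single arrays stood apart from their group in 5 of 30 checks of groups of 4 arrays, where chance alone would give about 1 in 20. In vehicle at 4 h these were replicate 2 for Ptges 1368015_at (1141), Ptger2 (109) and Hpgd 1387631_at (265), and replicate 1 for Ptger4 (477). In NARA at 48 h it was replicate 3 for Ptgfr 1369126_at (43.6). Apart from Ptges these probe sets were below the minimum signal.

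The arrays the authors left out held member signals of at least 300 that were above all 13 kept arrays. Vehicle 48 h replicate 1 read 4853 for Ptgs2 (highest kept 4837), 1242 for Ptges 1368015_at (highest kept 1141), 2028.5 for Pla2g4a (highest kept 1927) and 483 for Ptgds (highest kept 222). NARA 4 h replicate 1 read 1276 for Ptgis (highest kept 139). NARA 4 h replicate 4 read 1499.8 for Ptges 1368015_at, 1408 for Ptgfr 1369127_a_at (highest kept 1048) and 1023 for Hpgd 1376191_at (highest kept 246). Below 300, signals above every kept array were those of Ptger2 in NARA 4 h replicates 4 and 1 (203 and 128.5), Hpgd 1376191_at and Ptgfr 1369126_at in NARA 4 h replicate 1 (284 and 175) and Ptgis in vehicle 48 h replicate 1 (181). Member signals below all 13 kept arrays came from NARA 4 h replicates 1 and 4. Ptgs1 1368259_at read 3195 and 3639 in them (lowest kept 27443), and Ptgs1 1381806_at 696 and 621 (lowest kept 1151.5). Ptgs2 read 123 and 361.5 (lowest kept 647), and Ptges 1368014_at 266 in replicate 1 (lowest kept 274).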

How the results depend on the processing

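Over 31 values and up to 24 alternatives, 663 of 724 results kept their direction and side of the threshold, 40 lost the call, 2 gained it and 19 reversed. With all 16 arrays, members past the threshold at 48 h went from 3 to 0 (Ptgs2 -2.33, adjusted p = 0.255) and for the difference between times from 1 to 0. In that fit the 4 h changes became -0.012 for Ptges 1368014_at, 0.093 for Ptges 1368015_at, -1.64 for Ptgs1 1368259_at and -0.42 for Ptgs1 1381806_at, and the differences between times -0.29 for Ptges 1368015_at and 0.063 for Ptgs2. The count of members for the difference was 0 with no signal minimum and 0 with the replicate block (Ptgs2 -1.57, adjusted p = 0.158). It was 2 at a signal minimum of 1000, 2 under the trended and robust prior, and 0 to 1 over the fits that left out 1 array. The 48 h count was 2 to 3 over those fits. With the replicate block Ptgfr 1369127_a_at was 0.020 at 48 h and Ptges 1368014_at -0.068 at 4 h. The block took the array's 48 h calls from 586 to 312 and those for the difference from 26 to 0, and ended the 48 h calls of Egr1 (adjusted p = 0.0955) and Ptgs2os (0.101). With vehicle 48 h replicate 1 put back, chosen after seeing the data, the difference for Ptges 1368015_at was -0.029 and 60.0 probe sets were called for it. At 48 h that fit called 3 members and 770 probe sets. Leaving out 1 array gave sign changes, none of a called value: Ptges 1368014_at at 4 h (-0.017 to 0.51) and for culture time (-0.050 to 0.48), Ptges 1368015_at for the difference (-0.096 to 0.17), Ptgs1 1381806_at for the difference (-0.088 to 0.35) and for culture time (-0.43 to 0.010), and Ptgfr 1369127_a_at at 48 h (-0.29 to 0.030). Ptgs2 at 48 h kept its call in 23 of 24 alternatives, as did Ptgs1 1368259_at. The 48 h calls over the array numbered 39 with all 16 arrays, 217 with only the groups compared, 355 with no minimum, 1069 at a minimum of 1000 and 1098 under the trended and robust prior. For the difference they numbered 0, 11, 93 and 126 with all 16 arrays, no minimum, a minimum of 1000 and the trended prior, and 46 with an offset of 200. Median scaling moved the share of higher calls for the difference from 46.2% to 58.3%. A fit of only the groups compared was not possible for the difference. The cause of these changes was not tested. Dim probe sets (mean signal below 300) are given by level only.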
